A study of Oryctolagus cuniculus with 134 samples.

Results

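The matrix metalloproteinases (MMP), the ADAM and ADAMTS proteases, the ADAMTS-like proteins (ADAMTSL) and the tissue inhibitors of metalloproteinases (TIMP) were followed by RNA sequencing in 5 tissues of rabbits on 4 treatments. All genes whose symbol in the count tables starts with 1 of these names and a number were taken, which gave 61 of 29587 genes: 19 ADAM, 18 ADAMTS, 3 ADAMTSL, 18 MMP and 3 TIMP genes. The rule reads the symbol alone, and the family was picked with earlier results of these data known. MMP14, TIMP2 and ADAMTS13 were not among the symbols and were not analysed here. Of the 61 members, 50 passed the filter on low counts in at least 1 tissue and 41 in all 5, and the number tested per tissue was 49 (aorta), 47 (aortic valve), 45 (mitral), 44 (pulmonary) and 43 (tricuspid). The 11 members tested in no tissue were ADAM6, ADAM7, ADAM11, ADAM21, ADAM30, MMP7, MMP8, MMP10, MMP20, MMP26 and MMP27, and 10 of these stayed under 1 CPM (counts scaled by library size) in every library.

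The rabbits were male New Zealand White animals, 12 weeks old at the start, and the protocol ran for 16 weeks. Ctrl rabbits received standard chow. CHT rabbits received a diet with 0.3% cholesterol together with vitamin D2 at 25000 U per day per 2.5 kg of body weight during 15 days, Lard rabbits a diet with 5% lard and the same vitamin D2, and IR/CHT rabbits the CHT treatment plus X-ray irradiation of the heart, centred on the aortic valve and thoracic aorta. The dose was 24 Gy, split into 3 sessions at 8 Gy each, and was given after 8 weeks. The dose that reached the mitral, pulmonary and tricuspid valves was not analysed here. Vitamin D2 was thus common to CHT, Lard and IR/CHT and absent from Ctrl, and diet and vitamin D2 cannot be told apart in the comparisons with Ctrl. No irradiated rabbits on chow were analysed here, so that irradiation was compared on the CHT background alone. Every group held 7 libraries, except the CHT groups and the mitral valve Ctrl group with 6, and the 134 libraries came from 27 rabbits. The 3 comparisons with Ctrl in a tissue share the Ctrl libraries of that tissue. A log2 fold change is written log2FC. The SE beside it was derived from the edgeR test, as the absolute log2FC divided by the square root of the F statistic. It is not an error estimated by the fit itself. Values with ± are means and SDs over the libraries of a group, and 3 levels in a row are its lowest, median and highest library.

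MMPs are zinc-dependent endopeptidases that are made as inactive proforms and cut collagens, elastin and other matrix proteins. ADAMs are membrane-bound relatives, several of which release cytokines, growth factors and receptors from the cell surface, while the secreted ADAMTS proteases cut proteoglycans and trim procollagens. TIMPs bind the active site of these enzymes and block it. In arteries and heart valves, the balance between proteases and inhibitors takes part in the turnover of collagen, elastin and proteoglycans, and macrophages of atherosclerotic lesions are a known source of several MMPs.

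Totals ran from 13564979 to 50577676 counts per library with a median of 18235577. Plate 2 held every aorta library, plate 1 every aortic and mitral valve library on CHT, and each other valve group was divided between both. On the leading component of the variation within groups, which held 22.6% of it over 17030 genes, 7 libraries lay beyond 2 SD: Ctrl L150 and L277, CHT L151 and IR/CHT L194 of the aortic valve, Ctrl L168 and IR/CHT L197 of the tricuspid valve, and IR/CHT L275 of the pulmonary valve. Of the 50 members tested, 8 had over 50% of their within-group variance along it (ADAMTS10, ADAM15, ADAMTS2, ADAMTSL4, ADAM10, ADAMTS7, ADAMTS17 and MMP11) and 22 under 10%, among them MMP12 at 0.866%, TIMP1 at 1.07%, TIMP4 at 2.98% and ADAMTS14 at 3.20%. The summed level of 5 smooth muscle genes was 83797 to 117781 CPM in the Ctrl aorta against 1072 to 1712 CPM in the Ctrl aortic valve, and no listed smooth muscle, endothelial or fibroblast marker was at 0 in all libraries of either group. Heart muscle genes, of which 7 of 12 were found, ranged from 587 to 42115 CPM in the Ctrl tricuspid valve, so its libraries held heart muscle RNA in unequal amounts.

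Markers of other cells moved with treatment. The summed level of the 13 macrophage genes found, of 14 listed, was 72.9 to 307 CPM in the Ctrl aorta, 539.6 to 1371 CPM on CHT, 202 to 543.3 CPM on Lard and 815 to 2835 CPM on IR/CHT. Ranges for the aortic valve were 205 to 643 CPM, 908 to 1385 CPM, 137 to 763 CPM and 2607 to 3327 CPM in the same order, and for the mitral valve 233.1 to 690.1 CPM, 684 to 1324 CPM, 201.1 to 761 CPM and 961 to 1887 CPM. The pulmonary valve went from 558 to 709 CPM in Ctrl to 282 to 909.6 CPM on IR/CHT. Smooth muscle genes in the aorta went to 32520.1 to 83373 CPM on CHT, where 3 of 5 were called lower, and to 11694 to 62595 CPM on IR/CHT, where 5 of 5 were called lower, and the 7 heart muscle genes tested in the aortic valve were all called lower on CHT and on IR/CHT, and 4 of them on Lard. In the IR/CHT aorta 5 of these 7 were called higher and 1 lower, at 536 to 766 CPM in Ctrl and 179.4 to 3068 CPM on IR/CHT, where L566 was the highest and the next library had 673 CPM. Against CHT 5 were higher there. Their summed level in the aortic valve was 168.98 to 12458 CPM in Ctrl, 9.59 to 350.4 CPM on CHT, 16.3 to 242.4 CPM on Lard and 20.9 to 254 CPM on IR/CHT. Endothelial genes of the aorta went from 115 to 227 CPM in Ctrl to 198.6 to 1036 CPM on CHT and 258.7 to 1158 CPM on IR/CHT, with 7 of 8 called higher on each. T cell genes, of which 4 of 7 were found, were at 0.254 to 3.62 CPM in the Ctrl and 4.17 to 15.2 CPM in the IR/CHT aorta (4 of 4 called higher), and at 0.783 to 4.91 CPM and 8.06 to 32.7 CPM in the aortic valve (3 of 4). Of the 6 fibroblast and interstitial genes found, 3 were called higher in the IR/CHT aorta, while 1 was higher and 3 were lower in the IR/CHT aortic valve and 2 were lower in the IR/CHT mitral valve. Of the 5 smooth muscle genes 2 were called higher and 3 lower in the IR/CHT aortic valve, and 2 higher and 1 lower in the IR/CHT mitral valve, where 2 of 3 adipocyte genes were lower. Of 9 neutrophil genes 7 were found. Their sum in the aorta was 0.572 to 2.33 CPM in Ctrl, 0.311 to 31.3 CPM on Lard and 1.45 to 6.30 CPM on IR/CHT. In the aortic valve it was 0.564 to 4.28 CPM in Ctrl, 0.885 to 7.94 CPM on Lard and 2.16 to 5.48 CPM on IR/CHT. CAMP was at 0 in all Ctrl aortas. What part these changes had in the levels of the members below was not tested, and in bulk tissue fewer cells of a type and less RNA per cell cannot be told apart.

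On chow, the levels of members differed between some of the tissues, as did those of other genes. Of 45 members tested, 27 were called between the aortic valve and the aorta (49.6% of all genes tested were called there), 16 higher in the valve (29.2% of all genes) and 11 lower (20.5%). A call, here and below, is an adjusted p under 0.05 with a fold change over 1.5 in edgeR, unless another tool is named. ADAMTS19, an ADAMTS protease known for a role in heart valve development, stood at 0.508, 1.39 and 2.40 CPM in the Ctrl aorta and 39.8, 55.2 and 81.9 CPM in the Ctrl aortic valve. The 2 groups lay far apart (log2FC 5.29, SE 0.266, adjusted p = 6.37e-17). ADAMTS3, which removes the N-terminal propeptide of procollagen II, was at 7.996 ± 3.07 CPM in the Ctrl aorta and 117 ± 27.9 CPM in the aortic valve (log2FC 3.87, SE 0.207, adjusted p = 2.53e-16). The inhibitor TIMP4 was also higher in the valve, with 45.2 ± 20.03 CPM against 2.88 ± 1.97 CPM (log2FC 3.98, SE 0.364, adjusted p = 1.02e-10). So were the gelatinase MMP2 (log2FC 1.66, SE 0.189, adjusted p = 1.11e-08), the matrix-bound inhibitor TIMP3 (log2FC 1.71, SE 0.228, adjusted p = 2.14e-07) and ADAM2 (log2FC 1.30, SE 0.143, adjusted p = 5.51e-09).

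Higher in the Ctrl aorta were ADAMTS9, a proteoglycan-cleaving protease, with 298 ± 100.1 CPM against 13.9 ± 6.46 CPM in the aortic valve (log2FC -4.41, SE 0.316, adjusted p = 3.29e-13), and ADAMTSL3, an ADAMTS-like matrix protein without a protease domain (log2FC -1.85, SE 0.13, adjusted p = 1.89e-13). Next by p were ADAM19 (log2FC -2.74, SE 0.217, adjusted p = 3.69e-12), the membrane-type protease MMP16 (log2FC -2.11, SE 0.271, adjusted p = 1.14e-07) and ADAMTS12 (log2FC -0.89, SE 0.164, adjusted p = 3.31e-05), and ADAM9, MMP28, ADAMTS16, ADAMTS8, ADAMTS20 and ADAM10 made up the 11. ADAM10 was not called there by DESeq2, with its size factors, with no filter, on plate 2 alone or without the libraries that stand apart. The aortic and mitral valves differed in 1 of 45 members (2.75% of all genes), ADAMTS19, at 129 ± 44.1 CPM in the mitral and 56.7 ± 14.8 CPM in the aortic valve (log2FC 1.18, SE 0.223, adjusted p = 0.00201). With the rabbit as a block the count was 3, and without the libraries that stand apart it was 8. Over all genes, 213 were called higher and 210 lower in the mitral valve by edgeR, against 424 and 1078 by DESeq2.

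Between the pulmonary and the aortic valve, 25 of 45 members were called (48.2% of all genes), 5 higher in the pulmonary valve (18.4%) and 20 lower (29.9%). The 5 lower members with the smallest p were ADAMTSL4 (log2FC -3.64, SE 0.588, adjusted p = 3.96e-05), ADAM8 (log2FC -3.71, SE 0.629, adjusted p = 4.99e-05), ADAMTS10 (log2FC -3.68, SE 0.65, adjusted p = 5.83e-05), ADAMTS2 (log2FC -2.44, SE 0.441, adjusted p = 6.54e-05) and ADAM15 (log2FC -2.46, SE 0.455, adjusted p = 8.04e-05). Of these, 4 also had most of their within-group variance along the leading component (ADAMTS10 89.7%, ADAM15 84.8%, ADAMTS2 84.5% and ADAMTSL4 81.3%), and its part in this difference was not tested. Higher in the pulmonary valve were ADAM10, a constitutive sheddase (log2FC 1.14, SE 0.256, adjusted p = 0.000483), the aggrecanase ADAMTS5 (log2FC 0.92, SE 0.247, adjusted p = 0.00215), ADAM9 (log2FC 0.63, SE 0.178, adjusted p = 0.00336), ADAM22 (log2FC 0.87, SE 0.317, adjusted p = 0.0193) and ADAM28 (log2FC 1.07, SE 0.463, adjusted p = 0.0458). With the rabbit as a block ADAM28 and ADAMTS4 lost the call, at adjusted p = 0.0752 and 0.069, and both also lost it with no filter on low counts. With plate as a covariate the calls of ADAM22, ADAM28, ADAMTS4 and MMP24 were lost. Without the libraries that stand apart those of ADAM28, ADAM9 and ADAMTS16 were lost. On plate 2 alone no member was called, with 2 Ctrl libraries of the pulmonary valve there. Between the tricuspid and the mitral valve, 5 of 45 members were called (5.33% of all genes). Higher in the tricuspid valve were ADAM22 (log2FC 1.74, SE 0.34, adjusted p = 0.00145), ADAMTS12 (log2FC 0.72, SE 0.17, adjusted p = 0.00781) and ADAMTS20 (log2FC 2.63, SE 0.735, adjusted p = 0.025). MMP2 (log2FC -0.99, SE 0.191, adjusted p = 0.0013) and TIMP1 (log2FC -0.70, SE 0.167, adjusted p = 0.00784) were lower. Without the libraries that stand apart 14 members were called there, with these 5 among them.

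In the aorta, CHT changed 15 of 49 members (19.4% of all genes tested were called), 12 higher (14.2%) and 3 lower (5.18%). On Lard 7 members were called (2.61% of all genes), 7 higher (2.57%) and 0 lower (0.0406%). On IR/CHT the count was 25 (34.3%), 19 higher (22.2%) and 6 lower (12.2%). The median log2 fold change over the 49 members was 0.20 on CHT, 0.23 on Lard and 0.26 on IR/CHT, against -0.04, 0.01 and 0 over all genes tested.

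The aortic valve had 12 of 47 members called on CHT (11.9% of all genes), 8 higher (8.42%) and 4 lower (3.48%). None was called on Lard by edgeR (0.234% of all genes), where the unadjusted p was under 0.05 for 5 and DESeq2 called 1. On IR/CHT 29 were called (42.8%), 12 higher (21.1%) and 17 lower (21.7%). The median over the members was -0.52 against -0.06 over all genes. Over all genes, CHT gave 1297 higher and 536 lower calls by edgeR against 1369 and 1303 by DESeq2. With plate as a covariate ADAM12, ADAM19, ADAMTSL4, TIMP3 and TIMP4 lost the call on CHT, at adjusted p = 0.124, 0.0764, 0.13, 0.193 and 0.198. On plate 1 alone, the CHT count in the aortic valve was 5 (ADAMTS14, MMP12, ADAM17, ADAM9 and ADAMTSL3), with 3 Ctrl libraries.

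The mitral valve had 6 of 45 members called on CHT (5.62% of all genes), 4 higher (4.98%) and 2 lower (0.64%). It had 17 on IR/CHT (17.7%), 10 higher (11.1%) and 7 lower (6.65%). On plate 2 alone, with 2 Ctrl and 3 IR/CHT libraries, the IR/CHT count was 8. No member was called on Lard by edgeR or DESeq2 (0% of all genes, 0 at an unadjusted p under 0.05).

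In the pulmonary valve, edgeR called no member on CHT (0.159% of all genes, 4 members at an unadjusted p under 0.05, 1 by DESeq2) or on Lard (0%, 1 unadjusted, 0 by DESeq2). It called 2 of 44 on IR/CHT (0.706%). In the tricuspid valve no member of 43 was called by edgeR or DESeq2 on CHT (0.163%, 9 at an unadjusted p under 0.05), on Lard (0%, 4) or on IR/CHT (0.231%, 3). Without the Ctrl library L168, the most extreme on the leading component, edgeR called 4 members there on IR/CHT, and without all libraries that stand apart it called 0.

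**Figure D1:**
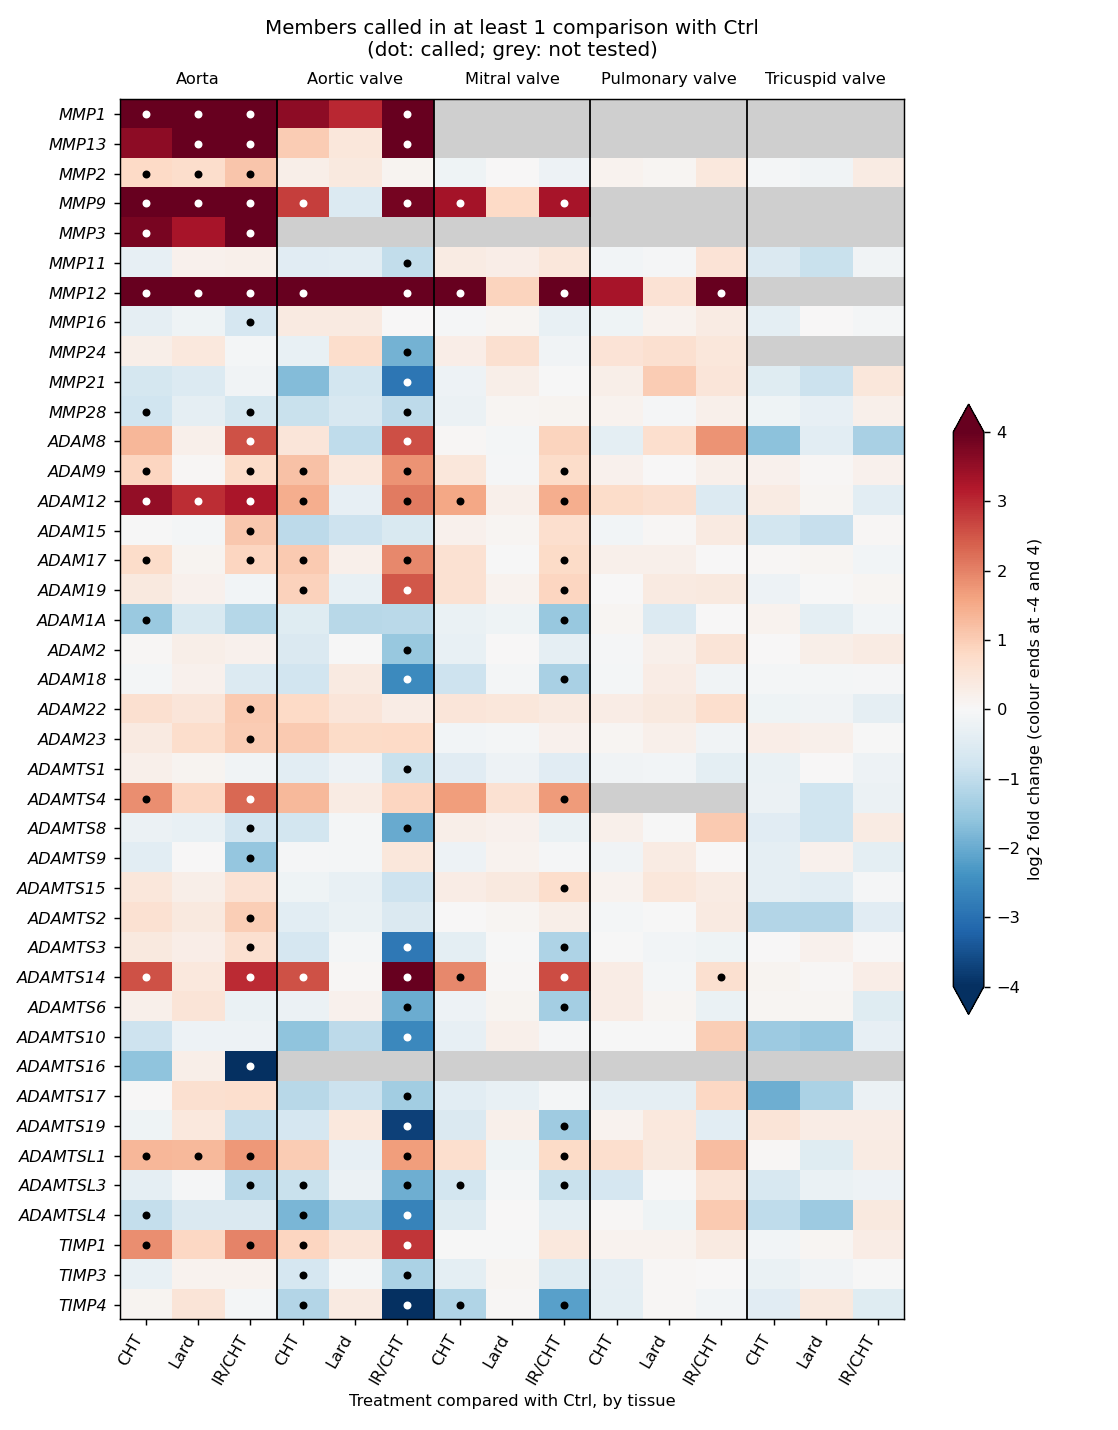
Log2 fold changes against Ctrl (colour, ending at -4 and 4) of the 41 members called in at least 1 of the 15 comparisons with Ctrl, in rows by family, with the treatments in columns by tissue. A dot marks a call and grey a member not tested, and the dots lie in the aorta and the mitral and aortic valves apart from MMP12 and ADAMTS14 on IR/CHT in the pulmonary valve.

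MMP12, the macrophage metalloelastase, went from near absence on chow to high levels. In the aorta its lowest, median and highest levels were 0, 0 and 0.448 CPM in Ctrl, 156.7, 280.3 and 691 CPM on CHT and 314, 415 and 924 CPM on IR/CHT. Every CHT and IR/CHT library lay above every Ctrl library and these 2 groups overlapped each other. Since the 7 Ctrl libraries held 13 counts of MMP12 together, the ratio of the pooled levels carries a wide 95% counting interval: 3008 (interval 1759 to 5651) on CHT and 4133 (interval 2417 to 7763) on IR/CHT, counting error only. The fitted log2 fold changes were 11.45 (SE 1.204, adjusted p = 6.16e-08) and 11.94 (SE 1.21, adjusted p = 1.44e-08), whose size depends on the prior count. Without the Ctrl library L551 they were 12.27 and 12.77. MMP12 passed the filter through its high groups alone, so its p-values against Ctrl, here and in the valves, are a description.

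Aortic valve libraries on CHT stood at 86.2, 223 and 572.6 CPM and those on IR/CHT at 464, 1131 and 2634 CPM, against 0, 0 and 0.113 CPM in Ctrl. Both treated groups lay wholly above Ctrl, and the highest CHT library lay among the IR/CHT libraries. Pooled ratios to the 4 counts in Ctrl were 9242 (interval 3609 to 33919.8) and 34839 (interval 13606 to 127866), and the fitted values 12.71 (SE 1.19, adjusted p = 1.67e-08) and 14.85 (SE 1.23, adjusted p = 2.51e-10). On Lard the valve had 0, 0.247 and 6.54 CPM, called by DESeq2 but not by edgeR (log2FC 5.11, SE 1.18, adjusted p = 0.0676). The highest of these, L232, also had the highest macrophage sum of the Lard valves, 763 CPM against 137 to 469 CPM in the other 6, and the largest total of all libraries. Mitral valve MMP12 was at 0, 0 and 0.468 CPM in Ctrl, 56.4, 158.7 and 272.6 CPM on CHT, 0, 0.0983 and 0.5 CPM on Lard and 127, 328 and 929 CPM on IR/CHT. There too the CHT and IR/CHT groups lay above all Ctrl libraries (log2FC 10.71, SE 0.773, adjusted p = 7.65e-10 on CHT and log2FC 11.89, SE 0.788, adjusted p = 8.34e-11 on IR/CHT). Macrophage markers rose in the same groups, with 11, 7 and 10 of 13 called higher on CHT in the aorta and the aortic and mitral valves and 13, 11 and 11 on IR/CHT. Single Ctrl libraries moved the MMP12 folds by over 1.5 times. Without L166 the aortic valve log2FC came to 13.35 on CHT and 15.52 on IR/CHT, and without L278 in the mitral valve it was 12.56 and 13.74.

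The genes that neighbour MMP12 in the RefSeq gene order are MMP1, MMP3 and MMP13, with MMP10, MMP8, MMP27, MMP20 and MMP7 further along, and the last 5 passed the filter in no tissue. MMP1, interstitial collagenase, had no count in any Ctrl library of the aorta or the aortic valve. In the aorta it reached 0.126, 1.24 and 3.16 CPM on CHT and 2.31, 5.09 and 42.2 CPM on IR/CHT, at least 46.7-fold and at least 398-fold the level of 3 counts over the Ctrl group. Its aortic valve level stayed at or under 0.133 CPM on CHT and reached 0.235, 1.71 and 19.2 CPM on IR/CHT, at least 238.7-fold. MMP1 passed the filter through its high groups alone, so these levels are a description and its calls lend them no support. With only the 2 groups compared it was not tested on CHT in the aorta or on IR/CHT in the aortic valve, and it was still called on IR/CHT in the aorta. Mitral valve MMP1 did not pass the filter. It had 1 count over the Ctrl and 81 over the IR/CHT libraries (pooled ratio 65.9, interval 11.5 to 2634, levels 0, 0.182 and 1.79 CPM on IR/CHT), and DESeq2, the fit with no filter and plate 1 alone called it there.

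MMP3, stromelysin-1, which also activates other proMMPs, passed the filter of the edgeR fit only in the aorta and stayed under 4 CPM there. It had 0.0363 ± 0.096 CPM in Ctrl, 0.6 ± 0.323 CPM on CHT (log2FC 3.81, SE 0.965, adjusted p = 0.00401) and 1.62 ± 1.19 CPM on IR/CHT (log2FC 5.25, SE 0.932, adjusted p = 4.71e-05, pooled ratio 43.5, interval 16.7 to 161.2). It did not pass the filter in the aortic valve, where its highest level was 0.196 CPM in Ctrl and 7.44 CPM on IR/CHT (pooled ratio 51.1, interval 21.6 to 158.6). DESeq2, the fit with no filter and plate 1 alone called it there for IR/CHT against Ctrl and against CHT. Without the Ctrl library L570 the log2FC of MMP3 in the aorta was 6.37 on CHT and 7.81 on IR/CHT. With only the 2 groups compared it was not tested on CHT. MMP3 passed the filter through its high groups alone, so its p-values on CHT and IR/CHT lend no support. MMP13, collagenase-3, rose on IR/CHT in the aorta to 0.375, 7.30 and 55.6 CPM from 0, 0 and 0.444 CPM (log2FC 7.04, SE 1.80, adjusted p = 0.00203, pooled ratio 132, interval 73.6 to 265.1). Its aortic valve level went from 0.0601 ± 0.0794 CPM to 2.77 ± 2.85 CPM (log2FC 5.30, SE 0.881, adjusted p = 1.78e-05). With only the 2 groups compared, MMP13 did not pass the filter in either tissue, so its p-values on IR/CHT describe the fit of all 4 groups and are no support for the rise. Its aorta log2FC was 6.03 without the IR/CHT library L567 and 8.14 without the Ctrl library L552. On CHT it was not called in either tissue (log2FC 3.59, SE 2.02, adjusted p = 0.19 in the aorta and log2FC 1.01, SE 0.95, adjusted p = 0.465 in the valve).

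Both gelatinases were higher in the aorta on CHT and on IR/CHT. MMP9, gelatinase B, which macrophages and neutrophils make, rose from 0.111 ± 0.158 CPM to 7.52 ± 5.13 CPM on CHT (log2FC 6.02, SE 1.398, adjusted p = 0.00195) and 14.9 ± 23.6 CPM on IR/CHT (log2FC 7.02, SE 1.39, adjusted p = 0.000165). The IR/CHT log2FC was 5.75 without L567, and without the Ctrl library L569 it was 6.95 on CHT and 7.96 on IR/CHT. With 12 counts over the Ctrl aortas, MMP9 passed the filter there through its high groups alone, so its p-values in the aorta are a description. It was also called in the aortic valve, at 0.425 ± 0.377 CPM in Ctrl, 2.81 ± 1.70 CPM on CHT (log2FC 2.78, SE 0.724, adjusted p = 0.00996) and 5.94 ± 6.68 CPM on IR/CHT (log2FC 3.83, SE 0.732, adjusted p = 0.000101). Mitral valve MMP9 was called too, with 0.157 ± 0.104 CPM, 1.67 ± 0.758 CPM (log2FC 3.34, SE 0.599, adjusted p = 0.000497) and 1.64 ± 0.948 CPM (log2FC 3.30, SE 0.589, adjusted p = 0.000156). The Ctrl mitral valves held 18 counts of MMP9 together, so the same limit applies there. MMP2, gelatinase A, which stromal cells make constitutively, was abundant already on chow. It rose in the aorta from 284 ± 56.0 CPM to 488 ± 153.3 CPM on CHT (log2FC 0.81, SE 0.189, adjusted p = 0.00211) and 593 ± 87.1 CPM on IR/CHT (log2FC 1.11, SE 0.184, adjusted p = 2.04e-05). The Ctrl and IR/CHT aortas did not overlap in MMP2, while Ctrl and CHT did. Aortic valve MMP2 was at 894 ± 189.8 CPM in Ctrl and 967 ± 291 CPM on IR/CHT (log2FC 0.10, SE 0.166, adjusted p = 0.626), and mitral valve MMP2 at 1146 ± 175.9 CPM and 1026 ± 198.3 CPM (log2FC -0.19, SE 0.124, adjusted p = 0.269).

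Among the other MMPs, all changes called against Ctrl were downward. MMP28, epilysin, fell in the aorta from 22.8 ± 6.21 CPM to 12.9 ± 1.45 CPM on CHT (log2FC -0.80, SE 0.181, adjusted p = 0.00159) and 13.6 ± 3.58 CPM on IR/CHT (log2FC -0.69, SE 0.173, adjusted p = 0.00159). It also fell in the IR/CHT aortic valve (log2FC -1.05, SE 0.361, adjusted p = 0.0176). The membrane-type MMP16 fell in the IR/CHT aorta (log2FC -0.67, SE 0.181, adjusted p = 0.00313). MMP21 (log2FC -2.88, SE 0.664, adjusted p = 0.000787), the membrane-type MMP24 (log2FC -1.88, SE 0.568, adjusted p = 0.00777) and MMP11, stromelysin-3 (log2FC -0.99, SE 0.316, adjusted p = 0.0113), fell in the IR/CHT aortic valve. MMP21 and MMP24 were low genes there, with 1.67 ± 1.496 CPM and 1.44 ± 0.76 CPM in Ctrl. MMP15 was called in no comparison with Ctrl and ran between 3.19 and 24.6 CPM over all libraries.

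In the Lard aorta MMP12, MMP9, MMP13, ADAM12, MMP1, MMP2 and ADAMTSL1 were called higher. All 7 were also called higher on IR/CHT there, and all but MMP13 on CHT, while ADAMTS14, ADAM9, ADAM17 and TIMP1 were not called on Lard. Lard and CHT were not tested against each other. MMP13 lay at 0, 22.5 and 299 CPM on Lard (log2FC 9.17, SE 1.84, adjusted p = 0.0067, pooled ratio to the 11 Ctrl counts 619.6, interval 346 to 1242), a higher median than on CHT or IR/CHT. The 7 libraries were spread over this whole range, with 299 CPM in L562, 77.8 in L575, 32.5 in L578, 22.5 in L577, 2.70 in L564, 0.187 in L576 and 0 in L563. MMP12 in these libraries was 174.3 CPM in L578, 122 in L575, 59.5 in L562, 17.4 in L577, 11.9 in L564, 2.13 in L563 and 0.124 in L576 (log2FC 8.78, SE 1.15, adjusted p = 0.000487). MMP9 reached 111 CPM in L562 (group values 0.249, 5.65 and 111 CPM, log2FC 7.51, SE 1.402, adjusted p = 0.00444), and MMP1 was at 0, 2.09 and 5.97 CPM, at least 87.0-fold the level of 3 counts over Ctrl. L562 also had the highest summed neutrophil level of these libraries, 31.3 CPM, with 0.311 to 5.35 CPM in the other 6, and 1 of the 2 neutrophil genes tested was called higher on Lard. Without L562 the log2FC was 7.71 for MMP13 and 5.78 for MMP9. It was 8.16 for MMP12 without L578, and without 1 Ctrl library it reached 10.28 (MMP13, L552), 8.45 (MMP9, L569) and 9.61 (MMP12, L551). For MMP13, L563 and L576 lay within the range of the Ctrl libraries and the other 5 above it, and for MMP12 only L576 lay within that range.

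Of the other members called on Lard, MMP2 was at 457 ± 112 CPM (log2FC 0.70, SE 0.183, adjusted p = 0.0353), ADAM12 at 8.06 ± 7.72 CPM (log2FC 2.95, SE 0.625, adjusted p = 0.00979) and ADAMTSL1 at 18.6 ± 12.6 CPM (log2FC 1.30, SE 0.342, adjusted p = 0.0365). MMP3, at 0.418 ± 0.421 CPM, was not called by edgeR (log2FC 3.29, SE 0.966, adjusted p = 0.0662) and was called by DESeq2. When only the Lard and Ctrl aortas entered the fit, 0 members and 0 of 13265 genes were called by edgeR (2012 genes had an unadjusted p under 0.05). MMP12, MMP13, MMP9 and MMP1 did not pass the filter of that fit, so their p-values on Lard lend no support. The 7 calls were thus made with the spread estimated over all 4 groups, and in runs without 1 library MMP2 lost its call in 10 of 14 and ADAMTSL1 in 8 of 14. Macrophage markers were called higher in 7 of 13 cases on Lard.

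**Figure D2:**
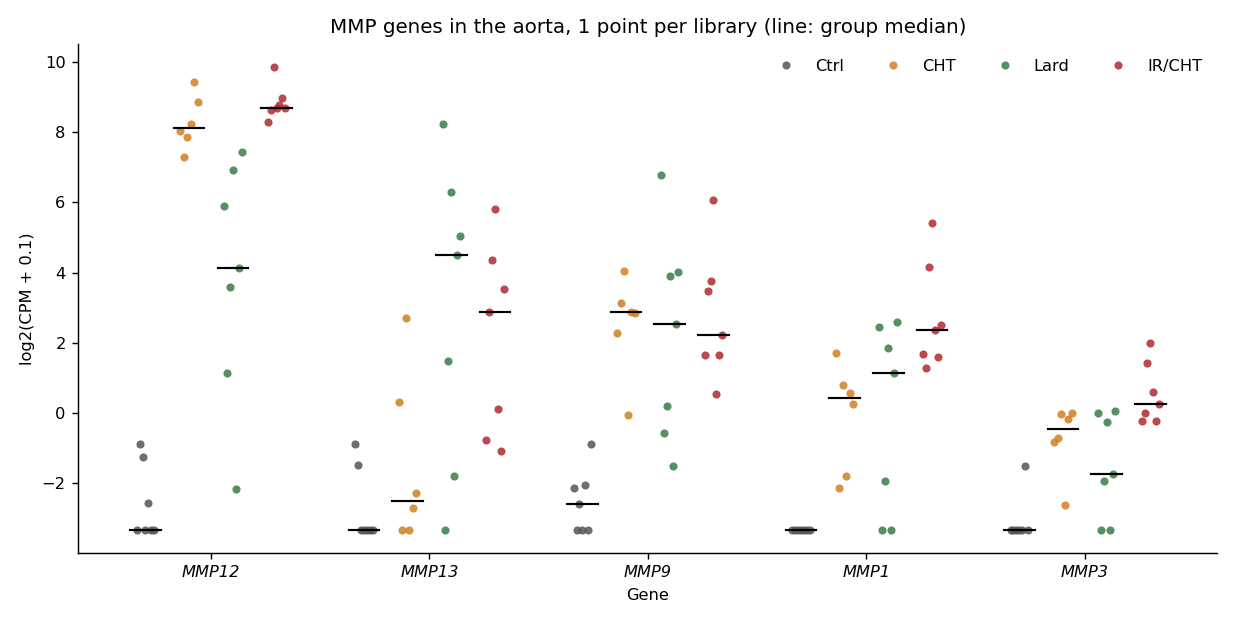
Levels of 5 MMP genes in the aorta, as log2(CPM + 0.1) on the vertical axis, 1 point per library, with the group median as a line. MMP12 is high in every CHT and IR/CHT library, and on Lard MMP12 and MMP13 run from the level of Ctrl to 174.3 and 299 CPM.

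Among the ADAMs with a catalytic site, the sheddases ADAM9 and ADAM17 rose on IR/CHT in the aorta and the mitral and aortic valves, and the myeloid ADAM8 in the aorta and aortic valve. ADAM17, which releases TNF and many receptors, was at 47.3, 64.0 and 78.9 CPM in the Ctrl aorta, 71.6, 103 and 128 CPM on CHT and 79.4, 109 and 135 CPM on IR/CHT. There CHT and Ctrl overlapped, and IR/CHT lay above Ctrl (log2FC 0.73, SE 0.141, adjusted p = 0.000294 on CHT and log2FC 0.85, SE 0.137, adjusted p = 1.40e-05 on IR/CHT). The aortic valve had 42.7, 51.6 and 58.1 CPM in Ctrl, 75.6, 109 and 130.2 CPM on CHT, 44.6, 59.7 and 81.6 CPM on Lard and 155.5, 185.4 and 240.6 CPM on IR/CHT. Its CHT libraries lay wholly above Ctrl and the IR/CHT libraries wholly above CHT, with log2FC 1.04, SE 0.152, adjusted p = 1.47e-05 on CHT and log2FC 1.93, SE 0.151, adjusted p = 7.91e-11 on IR/CHT. Mitral valve ADAM17 was at 48.7, 62.3 and 88.7 CPM in Ctrl and 80.5, 116 and 139.6 CPM on IR/CHT, with some overlap (log2FC 0.77, SE 0.183, adjusted p = 0.00257), and on CHT it was not called by edgeR (log2FC 0.61, SE 0.189, adjusted p = 0.051). DESeq2, its size factors in edgeR and the fit with no filter on low counts called it there.

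ADAM9, a widely expressed sheddase, rose in the aorta from 242.3 ± 34.2 CPM to 431 ± 98.4 CPM on CHT (log2FC 0.85, SE 0.125, adjusted p = 8.35e-06) and 388 ± 58.7 CPM on IR/CHT (log2FC 0.73, SE 0.121, adjusted p = 2.10e-05). Every treated library of both groups lay above Ctrl. Its aortic valve level went from 128 ± 49.3 CPM to 287 ± 64.8 CPM (log2FC 1.17, SE 0.239, adjusted p = 0.00108) and 449 ± 114 CPM (log2FC 1.79, SE 0.236, adjusted p = 5.97e-07). In the mitral valve it went from 175.04 ± 26.2 CPM to 297 ± 62.4 CPM on IR/CHT (log2FC 0.73, SE 0.127, adjusted p = 0.000119). The mitral valve on CHT passed the p threshold but not the fold, with log2FC 0.46, SE 0.131, adjusted p = 0.03.

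ADAM12, a sheddase linked to growth factor release and to activated stromal cells, was low on chow and called on CHT and on IR/CHT in the aorta and both left-sided valves. It rose from 1.05 ± 0.628 CPM to 11.7 ± 8.03 CPM on CHT (log2FC 3.50, SE 0.644, adjusted p = 0.000164) and 9.64 ± 6.24 CPM on IR/CHT (log2FC 3.25, SE 0.629, adjusted p = 0.000126) in the aorta. From 3.20 ± 2.52 CPM in the Ctrl aortic valve it went to 8.66 ± 2.36 CPM (log2FC 1.45, SE 0.465, adjusted p = 0.037) and 13.4 ± 8.67 CPM (log2FC 2.06, SE 0.46, adjusted p = 0.000562) in these groups. From 3.94 ± 1.82 CPM in the Ctrl mitral valve it went to 11.6 ± 2.15 CPM (log2FC 1.54, SE 0.38, adjusted p = 0.0112) and 10.9 ± 5.65 CPM (log2FC 1.45, SE 0.37, adjusted p = 0.00488). The aortic valve call on CHT was lost in 9 of 13 runs that left out 1 library. ADAM19, which is made in the developing heart valves and cuts neuregulin, rose in the aortic valve from 13.5 ± 4.20 CPM to 25.2 ± 7.28 CPM on CHT (log2FC 0.91, SE 0.254, adjusted p = 0.0163) and 76.6 ± 31.4 CPM on IR/CHT (log2FC 2.50, SE 0.257, adjusted p = 1.05e-08). It also rose in the IR/CHT mitral valve (log2FC 0.84, SE 0.265, adjusted p = 0.019). In the aorta it was higher than in the aortic valve on chow and was not called on IR/CHT, at 89.9 ± 18.4 CPM and 81.3 ± 11.3 CPM (log2FC -0.09, SE 0.142, adjusted p = 0.601). ADAM8, a protease of myeloid cells, rose on IR/CHT in the aorta from 5.04 ± 4.36 CPM to 28.6 ± 23.6 CPM (log2FC 2.56, SE 0.592, adjusted p = 0.000806). Its aortic valve level rose from 12.5 ± 12.2 CPM to 74.6 ± 47.2 CPM (log2FC 2.57, SE 0.584, adjusted p = 0.000674). On CHT it was not called in either, with log2FC 1.32 (SE 0.592, adjusted p = 0.0957) and 0.50 (SE 0.575, adjusted p = 0.561).

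ADAM10, the other main constitutive sheddase, was not called in any comparison with Ctrl. Its log2 fold changes on IR/CHT were -0.11 (SE 0.0957, adjusted p = 0.374) in the aorta, 0.55 (SE 0.324, adjusted p = 0.168) in the aortic valve and -0.15 (SE 0.212, adjusted p = 0.652) in the mitral valve. ADAM15 rose in the IR/CHT aorta (log2FC 1.09, SE 0.353, adjusted p = 0.0121), and 84.8% of its within-group variance lay along the leading component. ADAM28 passed the filter in 2 tissues and stayed at or under 1.41 CPM in all libraries.

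Further ADAMs were called. ADAM22 (log2FC 1.03, SE 0.315, adjusted p = 0.00803) and ADAM23 (log2FC 1.0004, SE 0.315, adjusted p = 0.00992), receptors known from neurons, rose in the IR/CHT aorta. ADAM2, known as a subunit of the sperm protein fertilin, was read at 20.1 CPM or more in every library. It fell in the IR/CHT aortic valve from 109 ± 8.28 CPM to 38.5 ± 11.02 CPM with no overlap (log2FC -1.51, SE 0.165, adjusted p = 2.82e-08). In the RefSeq gene order it lies next to EPHX2, and whether reads of other transcripts enter its count was not tested. ADAM18 fell on IR/CHT in the aortic valve from 4.10 ± 2.90 CPM to 0.693 ± 0.515 CPM (log2FC -2.56, SE 0.51, adjusted p = 0.000163) and in the mitral valve (log2FC -1.31, SE 0.344, adjusted p = 0.00611). ADAM1A, a low gene at 1.01 ± 0.416 CPM in the Ctrl aorta, was called lower on CHT in the aorta (log2FC -1.48, SE 0.517, adjusted p = 0.032) and on IR/CHT in the mitral valve (log2FC -1.503, SE 0.415, adjusted p = 0.00848).

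The 3 procollagen N-proteinases trim the N-terminal propeptides of fibrillar procollagens. On IR/CHT all 3 were called higher in the aorta, while in the aortic and mitral valves ADAMTS14 was higher and ADAMTS3 lower. ADAMTS14 had the smallest p of all members in the comparisons with Ctrl. Its libraries lay at 9.53, 11.1 and 17.8 CPM in the Ctrl aorta, 40.2, 73.1 and 97.7 CPM on CHT, 10.4, 18.4 and 23.5 CPM on Lard and 50.8, 101 and 131 CPM on IR/CHT. For the aortic valve the same groups were at 9.73, 12.1 and 18.4 CPM, 57.0, 59.7 and 102 CPM, 8.29, 13.0 and 21.3 CPM and 138, 205 and 299 CPM. Mitral valve libraries were at 9.65, 14.9 and 18.2 CPM, 32.4, 54.7 and 80.4 CPM, 8.46, 15.5 and 23.6 CPM and 53.5, 90.6 and 132 CPM.

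In all 3 tissues every CHT and IR/CHT library exceeded every Ctrl library of ADAMTS14, whereas Lard overlapped Ctrl. Aortic valve IR/CHT also lay wholly above CHT, which was not so in the aorta or the mitral valve. The log2 fold changes on CHT were 2.56 (SE 0.238, adjusted p = 1.03e-08) in the aorta, 2.53 (SE 0.222, adjusted p = 6.74e-09) in the aortic valve and 1.92 (SE 0.254, adjusted p = 1.25e-05) in the mitral valve. On IR/CHT they were 2.999 (SE 0.237, adjusted p = 3.92e-10), 4.04 (SE 0.232, adjusted p = 6.10e-13) and 2.60 (SE 0.255, adjusted p = 5.33e-08). Over the 20 group means, the genes with the pattern most like it by Spearman's rho were LRMP (0.977), FCER1G (0.967), GAS2L3 (0.965), ITGA4 (0.955) and ITGAM (0.947), of which FCER1G and ITGAM were on the macrophage list.

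Unlike ADAMTS14, ADAMTS3 was lower in the IR/CHT aortic and mitral valves. It fell in the aortic valve from 71.7, 119 and 150.2 CPM to 5.41, 18.2 and 26.4 CPM, without overlap (log2FC -2.87, SE 0.278, adjusted p = 3.63e-09). Its mitral valve level fell from 74.1 ± 10.5 CPM to 32.3 ± 7.68 CPM (log2FC -1.23, SE 0.201, adjusted p = 5.58e-05). In the aorta, where its chow level was far lower, it rose on IR/CHT from 7.996 ± 3.07 CPM to 12.03 ± 2.97 CPM (log2FC 0.64, SE 0.23, adjusted p = 0.023). ADAMTS2, the main enzyme for procollagen I, was called in the IR/CHT aorta, with 38.3 ± 14.5 CPM and 73.5 ± 27.0 CPM (log2FC 0.99, SE 0.288, adjusted p = 0.00566), and was not called on IR/CHT in the aortic valve (log2FC -0.58, SE 0.356, adjusted p = 0.186).

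**Figure D3:**
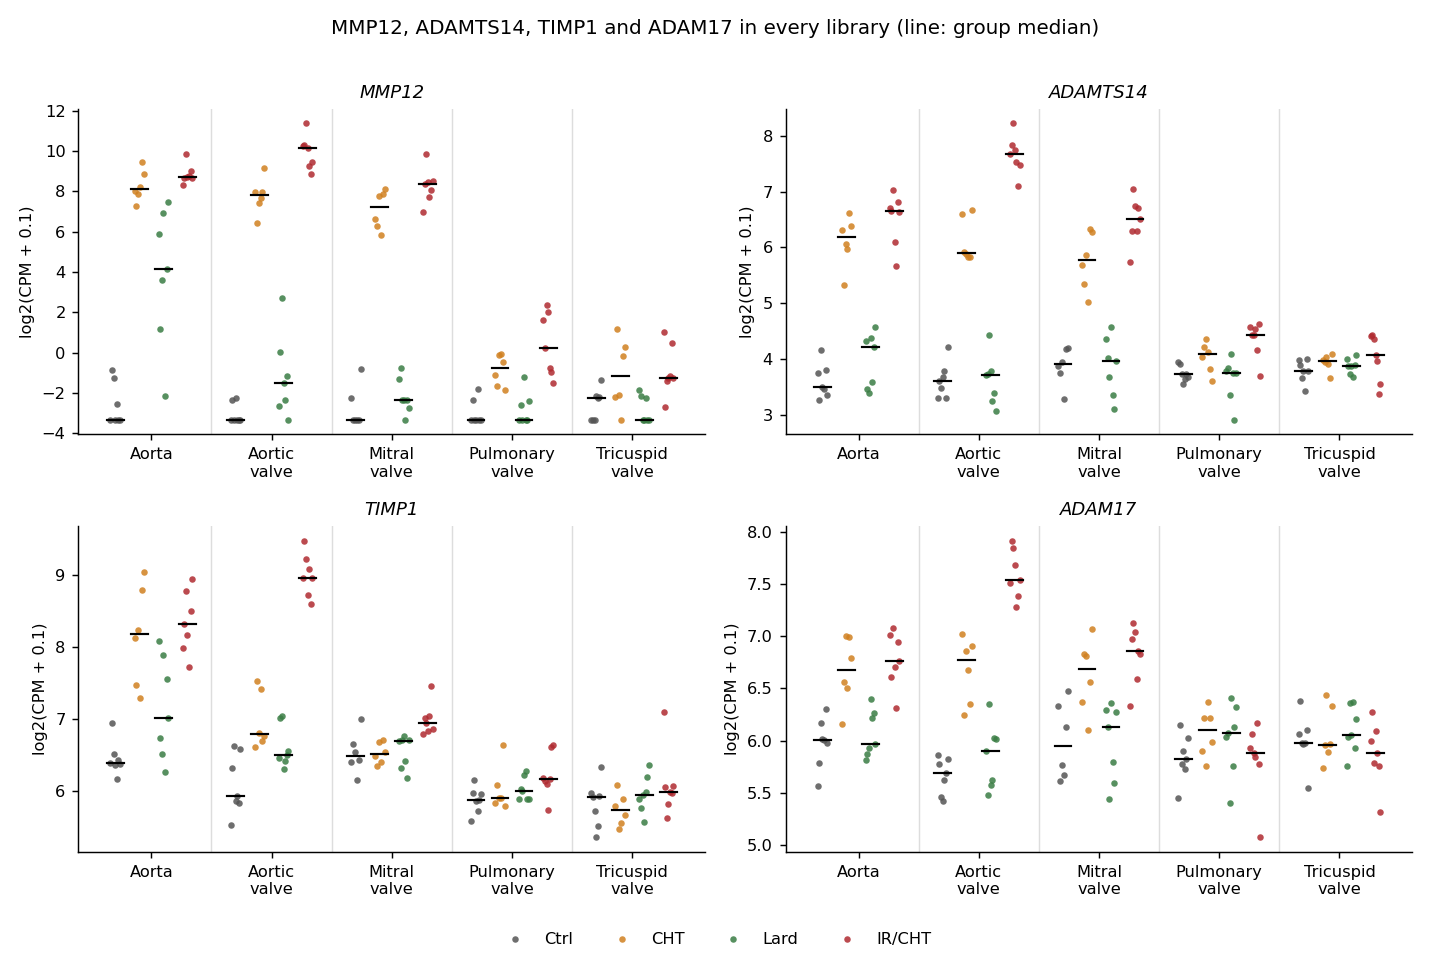
MMP12, ADAMTS14, TIMP1 and ADAM17 in every library of the 5 tissues, as log2(CPM + 0.1), coloured by treatment, with the group median as a line. ADAMTS14 on CHT and IR/CHT is above all Ctrl libraries in the aorta and the mitral and aortic valves, and in the aortic valve IR/CHT is above CHT for ADAMTS14, TIMP1 and ADAM17.

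The proteoglycan-cleaving ADAMTS proteases did not move as a group. ADAMTS4, aggrecanase-1, was low everywhere. It rose in the aorta from 0.602 ± 0.584 CPM to 2.18 ± 1.93 CPM on CHT (log2FC 1.87, SE 0.706, adjusted p = 0.0471) and 2.88 ± 2.03 CPM on IR/CHT (log2FC 2.30, SE 0.693, adjusted p = 0.00732), and in the mitral valve on IR/CHT (log2FC 1.72, SE 0.553, adjusted p = 0.0221). The aorta call on CHT was lost in 9 of 13 runs without 1 library. ADAMTS5, aggrecanase-2, was not called on any treatment, with log2FC 0.28, SE 0.214, adjusted p = 0.277 in the IR/CHT aorta and log2FC 0.31, SE 0.292, adjusted p = 0.39 in the IR/CHT aortic valve. ADAMTS1, a versican-cleaving protease, was called lower in the IR/CHT aortic valve, at 71.5 ± 20.1 CPM against 133 ± 19.3 CPM (log2FC -0.91, SE 0.206, adjusted p = 0.000704), and not called in the aorta (log2FC -0.13, SE 0.258, adjusted p = 0.696). ADAMTS9 fell in the IR/CHT aorta from 121, 288 and 442 CPM to 52.1, 93.1 and 171.1 CPM (log2FC -1.56, SE 0.273, adjusted p = 4.14e-05), and was not called in the aortic valve (log2FC 0.44, SE 0.36, adjusted p = 0.323). The upper IR/CHT levels reached into the lower Ctrl levels, and smooth muscle markers fell in the same aortas. ADAMTS8 fell on IR/CHT in the aorta (log2FC -0.77, SE 0.257, adjusted p = 0.0139) and the aortic valve (log2FC -2.002, SE 0.643, adjusted p = 0.0118), and ADAMTS15 rose on IR/CHT in the mitral valve (log2FC 0.69, SE 0.221, adjusted p = 0.0213).

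Among the remaining ADAMTS genes, those called in the irradiated tissues were lower. ADAMTS19 dropped in the IR/CHT aortic valve from 39.8, 55.2 and 81.9 CPM to 0.933, 5.23 and 7.90 CPM, while CHT stood at 24.9, 34.5 and 54.2 CPM and Lard at 32.3, 72.5 and 109 CPM. All 7 IR/CHT libraries lay below every library of the other 3 groups (log2FC -3.73, SE 0.391, adjusted p = 1.41e-08). Mitral valve ADAMTS19 went from 129 ± 44.1 CPM to 49.1 ± 30.9 CPM (log2FC -1.43, SE 0.355, adjusted p = 0.0039). ADAMTS6, which takes part in fibrillin microfibril turnover, fell in the aortic valve from 77.7 ± 16.4 CPM to 19.9 ± 4.69 CPM (log2FC -1.98, SE 0.202, adjusted p = 9.48e-09) and, for the mitral valve, from 60.8 ± 6.21 CPM to 24.04 ± 2.77 CPM (log2FC -1.37, SE 0.167, adjusted p = 1.17e-06), both without overlap. Aortic valve ADAMTS10 (log2FC -2.56, SE 0.575, adjusted p = 0.000595) and ADAMTS17 (log2FC -1.403, SE 0.45, adjusted p = 0.0117) were also lower, and both follow the leading component (89.7% and 65.0% of within-group variance). ADAMTS16 was tested only in the aorta, where it fell from 7.79 ± 4.45 CPM to 0.457 ± 0.558 CPM on IR/CHT (log2FC -4.01, SE 0.764, adjusted p = 0.000107), with 0 CPM as the lowest IR/CHT library.

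The 3 ADAMTS-like genes, which encode matrix proteins that bind fibrillin microfibrils and other matrix components without cutting them, split. ADAMTSL1 rose in the aorta on CHT (log2FC 1.32, SE 0.352, adjusted p = 0.00586) and IR/CHT (log2FC 1.73, SE 0.344, adjusted p = 0.000172), from 7.68 ± 1.45 CPM to 18.9 ± 9.21 CPM and 24.6 ± 11.3 CPM. On IR/CHT it also rose in the aortic valve (log2FC 1.68, SE 0.458, adjusted p = 0.00348) and the mitral valve (log2FC 0.77, SE 0.235, adjusted p = 0.0167). ADAMTSL3 fell in the aortic and mitral valves on CHT and on IR/CHT. It was at 143, 164 and 175.2 CPM in the Ctrl aortic valve, 57.7, 79.1 and 135 CPM on CHT and 19.0, 48.5 and 51.8 CPM on IR/CHT. The CHT and IR/CHT libraries lay below all Ctrl libraries, and IR/CHT below CHT (log2FC -0.90, SE 0.193, adjusted p = 0.00168 on CHT and log2FC -1.96, SE 0.19, adjusted p = 3.56e-09 on IR/CHT). Mitral valve log2FC values were -0.72 (SE 0.124, adjusted p = 0.000332) on CHT and -0.91 (SE 0.119, adjusted p = 3.17e-06) on IR/CHT. In the aorta, where it was most abundant, they were -0.37 (SE 0.167, adjusted p = 0.0955) and -1.07 (SE 0.162, adjusted p = 6.45e-06). ADAMTSL4 was called lower on CHT in the aorta (log2FC -0.95, SE 0.284, adjusted p = 0.0129) and on CHT (log2FC -1.81, SE 0.6, adjusted p = 0.0442) and IR/CHT (log2FC -2.68, SE 0.587, adjusted p = 0.000466) in the aortic valve, where its Ctrl libraries ran from 95.4 to 1053 CPM.

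The 3 inhibitors responded in opposite ways in the aortic valve. TIMP1, an inducible inhibitor of most MMPs, stood at 46.3, 61.2 and 98.7 CPM in Ctrl, 97.7, 111 and 184.2 CPM on CHT, 79.1, 90.4 and 131 CPM on Lard and 389, 498 and 711 CPM on IR/CHT. The IR/CHT libraries lay above those of all other groups, and CHT overlapped Ctrl by its lowest library (log2FC 0.87, SE 0.198, adjusted p = 0.00306 on CHT and log2FC 2.87, SE 0.204, adjusted p = 1.61e-11 on IR/CHT). In the aorta TIMP1 was at 72.2, 83.6 and 123 CPM in Ctrl, 156.5, 291 and 529 CPM on CHT, 76.8, 129.5 and 270.7 CPM on Lard and 211, 319 and 495 CPM on IR/CHT. Both cholesterol-fed groups were wholly above Ctrl (log2FC 1.85, SE 0.295, adjusted p = 2.73e-05 and log2FC 1.98, SE 0.289, adjusted p = 4.19e-06), and Lard was not called (log2FC 0.83, SE 0.281, adjusted p = 0.122). Mitral valve TIMP1 lay at 71.1, 89.7 and 128 CPM in Ctrl, 81.5, 91.6 and 105 CPM on CHT, 72.5, 104 and 109 CPM on Lard and 111, 124 and 175.6 CPM on IR/CHT. Its change on IR/CHT did not reach the fold threshold (log2FC 0.42, SE 0.127, adjusted p = 0.0145).

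TIMP4, an inhibitor prominent in the heart, stood at 18.1, 53.5 and 66.5 CPM in the Ctrl aortic valve, 9.77, 20.1 and 35.2 CPM on CHT, 42.0, 59.5 and 71.2 CPM on Lard and 0.62, 1.88 and 4.33 CPM on IR/CHT. All IR/CHT libraries lay below the other groups (log2FC -4.39, SE 0.436, adjusted p = 5.55e-09). CHT overlapped Ctrl (log2FC -1.17, SE 0.397, adjusted p = 0.0497, lost in 9 of 13 runs without 1 library). Mitral valve levels were 15.7, 26.3 and 38.9 CPM in Ctrl, 5.16, 9.21 and 26.3 CPM on CHT, 20.6, 29.3 and 38.2 CPM on Lard and 3.10, 6.55 and 10.99 CPM on IR/CHT. The IR/CHT group was again wholly below Ctrl (log2FC -2.18, SE 0.328, adjusted p = 1.91e-05). CHT was called lower as well (log2FC -1.21, SE 0.335, adjusted p = 0.0253, lost in 7 of 12 runs). The aorta held little TIMP4 on any treatment: 0.63, 2.32 and 6.64 CPM in Ctrl, 1.07, 2.32 and 6.54 CPM on CHT, 1.88, 3.91 and 7.84 CPM on Lard and 1.34, 2.92 and 3.41 CPM on IR/CHT (log2FC -0.08, SE 0.407, adjusted p = 0.884 on IR/CHT). Of the 7 heart muscle markers, 7 were called lower in the aortic valve on CHT and on IR/CHT and 4 on Lard, where TIMP4 was not called (log2FC 0.35, SE 0.373, adjusted p = 0.593), and none was called in the mitral valve on IR/CHT.

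TIMP3, the inhibitor that is held in the matrix and also blocks ADAM17 and several ADAMTS enzymes, had Ctrl levels of 1085, 1495 and 2525 CPM in the aortic valve. Its levels there were 762, 967 and 1285 CPM on CHT, 1124, 1469 and 1935 CPM on Lard and 384, 675 and 881 CPM on IR/CHT. The IR/CHT group lay below all Ctrl libraries (log2FC -1.27, SE 0.205, adjusted p = 1.19e-05). CHT overlapped them (log2FC -0.66, SE 0.212, adjusted p = 0.0386, lost in 7 of 13 runs). Mitral valve TIMP3 was at 883, 1076 and 1475 CPM in Ctrl, 658, 738 and 1242 CPM on CHT, 995, 1131 and 1480.0 CPM on Lard and 578.7, 774 and 1024 CPM on IR/CHT, short of the fold threshold (log2FC -0.53, SE 0.151, adjusted p = 0.0106). In the aorta it was at 316, 499 and 601 CPM, 309, 359.7 and 558 CPM, 468, 485 and 689 CPM and 424, 535 and 633 CPM in the same order, each treated group overlapping Ctrl (log2FC 0.14, SE 0.147, adjusted p = 0.461 on IR/CHT).

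**Figure D4:**
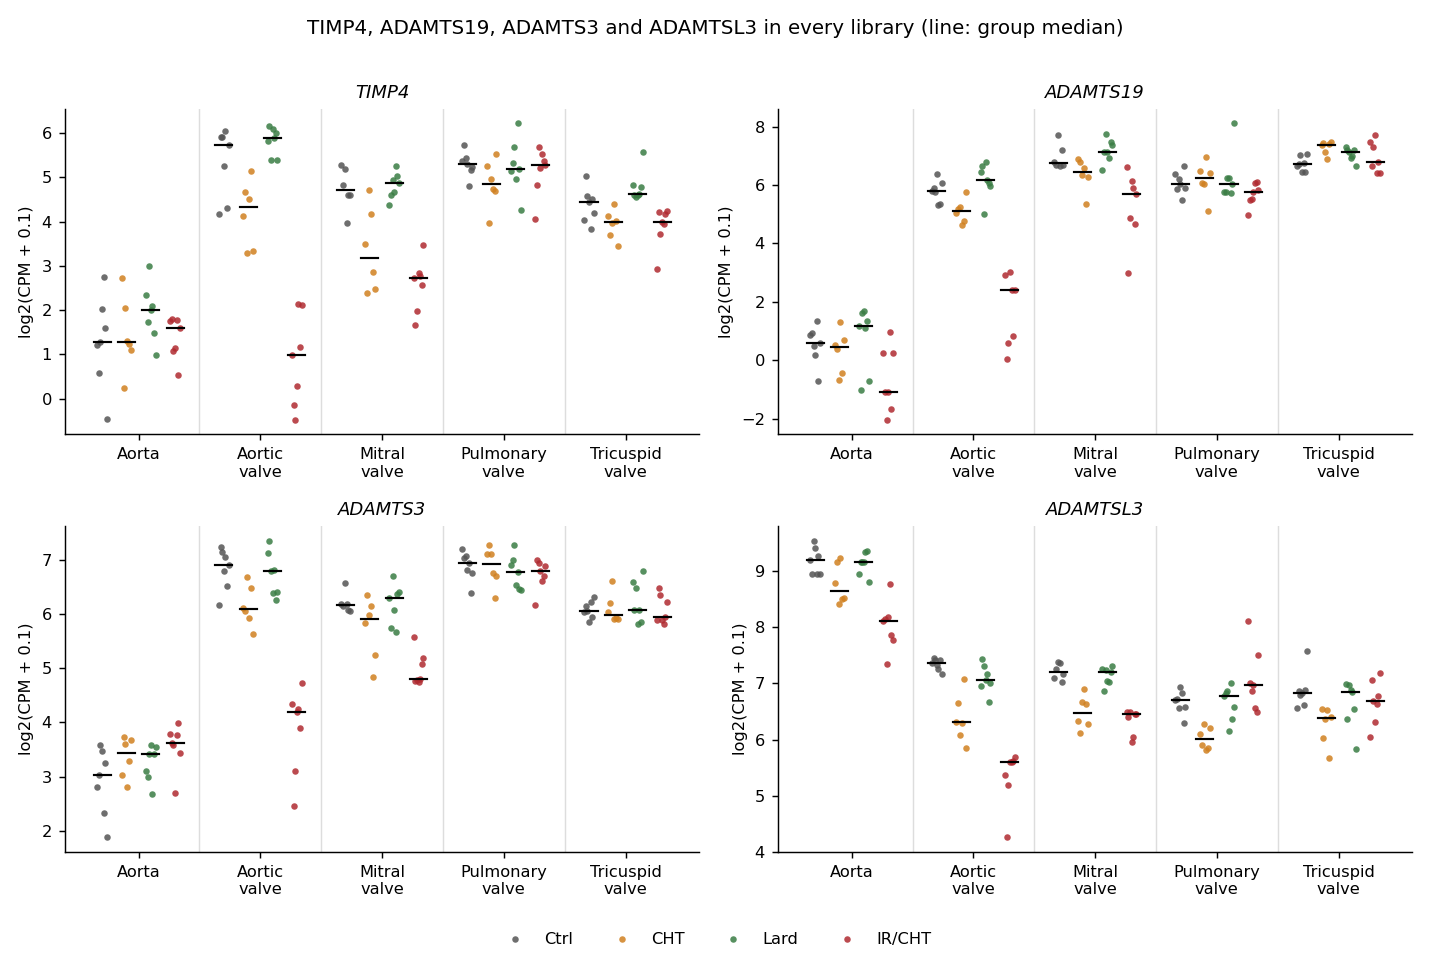
TIMP4, ADAMTS19, ADAMTS3 and ADAMTSL3 in every library of the 5 tissues, as log2(CPM + 0.1), coloured by treatment, with the group median as a line. In the aortic valve the IR/CHT libraries of all 4 genes lie below all Ctrl libraries, and in the pulmonary and tricuspid valves IR/CHT overlaps Ctrl.

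Irradiation on top of the cholesterol diet was compared directly, IR/CHT against CHT. For the aortic valve 17 of 47 members were called (19.7% of all genes), 8 higher (9.9%) and 9 lower (9.85%). The 5 higher members with the smallest p were TIMP1 (log2FC 1.995, SE 0.209, adjusted p = 1.56e-06), ADAMTS14 (log2FC 1.504, SE 0.22, adjusted p = 2.69e-05), ADAM19 (log2FC 1.59, SE 0.262, adjusted p = 0.000104), ADAM17 (log2FC 0.89, SE 0.154, adjusted p = 0.000166) and MMP1. MMP13 (log2FC 4.29, SE 0.858), ADAM8 (log2FC 2.08, SE 0.604, adjusted p = 0.0133) and MMP12 (log2FC 2.15, SE 0.712, adjusted p = 0.0289) made up the rest, and the call of MMP12 was lost in 6 of 13 runs without 1 library and with DESeq2 (adjusted p = 0.0649). MMP1 and MMP13 passed the filter there through the IR/CHT group alone and were not tested in 6 of 13 such runs, so their place among these 8 is a description. The 5 lower members with the smallest p were ADAMTS6 (log2FC -1.73, SE 0.206, adjusted p = 3.95e-06), ADAMTS19 (log2FC -3.06, SE 0.387, adjusted p = 6.71e-06), ADAMTS3 (log2FC -2.19, SE 0.277, adjusted p = 6.71e-06), TIMP4 (log2FC -3.22, SE 0.423, adjusted p = 8.26e-06) and ADAM2 (log2FC -0.94, SE 0.169, adjusted p = 0.000233). ADAMTSL3, ADAM18, TIMP3 and MMP24 followed. DESeq2, its size factors in edgeR and the fit with no filter did not call TIMP3, and the last 2 of these did not call MMP24. In this comparison 9 of 13 macrophage and 3 of 4 T cell markers were called higher, and 2 of 6 fibroblast and interstitial and 1 of 5 smooth muscle markers lower, and their part in these values was not tested.

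In the aorta the same comparison called 2 of 49 members (0.596% of all genes), ADAMTS12 (log2FC -0.68, SE 0.157, adjusted p = 0.0386) and ADAMTSL3 (log2FC -0.70, SE 0.166, adjusted p = 0.0432), both lower, and left-out libraries moved this count between 0 and 4. For the mitral valve it called 1 of 45 (0.189%), ADAMTS6, which was lower (log2FC -1.16, SE 0.167, adjusted p = 0.00178). In the pulmonary valve it called 2 of 44 (0.0761%), ADAMTSL3 (log2FC 1.17, SE 0.201, adjusted p = 0.0198) and ADAM2 (log2FC 0.59, SE 0.112, adjusted p = 0.0263), both higher. The tricuspid valve had none by edgeR or DESeq2 (0%, 8 members at an unadjusted p under 0.05). Over all genes edgeR gave 24 higher and 64 lower calls for the aorta, 8 and 21 for the mitral and 11 and 0 for the pulmonary valve, against 299 and 225, 58 and 80, and 358 and 103 by DESeq2. The pulmonary valve library IR/CHT L176 held 21078 CPM of smooth muscle markers, and without it the ADAMTSL3 log2FC was 0.93 (adjusted p = 0.0318). In runs without 1 library ADAMTSL3 lost this call in 4 of 13 and ADAM2 in 9 of 13. On IR/CHT against Ctrl the pulmonary valve had MMP12 at 0, 0 and 0.188 CPM in Ctrl and 0.259, 1.09 and 4.98 CPM on IR/CHT, all IR/CHT libraries above Ctrl (log2FC 5.28, SE 0.884, adjusted p = 0.00117). ADAMTS14 was at 13.3 ± 1.33 CPM and 20.7 ± 4.11 CPM (log2FC 0.64, SE 0.157, adjusted p = 0.046, lost in 12 of 14 runs). With only the 2 groups compared MMP12 did not pass the filter there, so its p lends no support, and plate 2 alone did not call it. Of 13 macrophage markers, 3 were called higher in this valve on IR/CHT. The 95% counting interval of the pooled MMP12 ratio there was 19.6 to 119.

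In the pulmonary and tricuspid valves TIMP1, TIMP4 and ADAM17 were not called on IR/CHT. TIMP1 was at 59.2 ± 7.54 CPM in the Ctrl and 76.3 ± 16.6 CPM in the IR/CHT pulmonary valve (log2FC 0.37, SE 0.13, adjusted p = 0.178), and at 57.8 ± 13.0 CPM and 71.9 ± 29.3 CPM in the tricuspid valve (log2FC 0.29, SE 0.19, adjusted p = 0.756). TIMP4 was at 39.8 ± 7.67 CPM and 37.2 ± 11.6 CPM in the pulmonary valve (log2FC -0.10, SE 0.253, adjusted p = 0.889), and ADAM17 at 57.6 ± 8.76 CPM and 57.8 ± 12.2 CPM (log2FC 0, SE 0.144, adjusted p = 0.993). ADAMTSL3 stood at 78.1, 105 and 123 CPM in the Ctrl pulmonary valve, 56.3, 64.2 and 77.2 CPM on CHT, 70.8, 109.9 and 128 CPM on Lard and 90.2, 126 and 278.3 CPM on IR/CHT. All CHT libraries lay below those of Ctrl and IR/CHT, and CHT against Ctrl did not pass the test (log2FC -0.66, SE 0.198, adjusted p = 0.222), though it was called with only these 2 groups in the fit. MMP12 in the tricuspid valve ran up to 0.286 CPM in Ctrl and 1.94 CPM on IR/CHT, the pooled ratio being 7.17, interval 3.81 to 14.9.

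Whether the tissues differed in their response was tested as an interaction, called at an adjusted p under 0.05 alone. CHT had a different effect in aorta and aortic valve for 1 of 50 members (5.3% of all genes), ADAMTS3. In the fits of single tissues its log2FC was -0.68 in the valve and 0.40 in the aorta. The joint fit of both tissues gave a difference of -1.13 (SE 0.355, adjusted p = 0.0487). With plate as a covariate or no filter on low counts this call was lost. The response to IR/CHT differed for 24 members (32.8%), 5 with a higher value in the valve (11.1%) and 19 with a lower one (21.7%). The median difference over all genes was -0.29 (-0.20 with the size factors of DESeq2). Differences below zero with the smallest p were those of ADAMTS3 (-3.63, SE 0.351, adjusted p = 5.20e-11), TIMP4 (-4.43, SE 0.58, adjusted p = 1.12e-07), ADAM2 (-1.82, SE 0.261, adjusted p = 6.60e-07), ADAMTS6 (-1.85, SE 0.295, adjusted p = 4.78e-06) and TIMP3 (-1.55, SE 0.26, adjusted p = 1.03e-05). Those above zero were ADAM19 (2.46, SE 0.298, adjusted p = 2.04e-08), ADAM17 (0.94, SE 0.198, adjusted p = 0.000278), ADAMTS9 (1.88, SE 0.46, adjusted p = 0.00149), ADAM9 (0.94, SE 0.248, adjusted p = 0.00304) and ADAMTS14 (0.91, SE 0.3, adjusted p = 0.017). MMP2, called in the aorta alone, also differed (-1.15, SE 0.247, adjusted p = 0.000359).

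Against the pulmonary valve, the aortic valve responded differently to CHT in 3 of 48 members (4.39% of all genes), ADAMTS14 (2.23, SE 0.275, adjusted p = 1.15e-07), ADAM9 (0.97, SE 0.25, adjusted p = 0.0113) and ADAM17 (0.80, SE 0.219, adjusted p = 0.0193), all with the higher value in the aortic valve. With plate as a covariate ADAM17 lost this call (0.74, adjusted p = 0.0503). Of all genes, 641 had a higher and 61 a lower value there by edgeR, against 730 and 204 by DESeq2. The median difference over all genes on IR/CHT was -0.19. To IR/CHT 27 members differed (40.2%), 9 higher in the aortic valve (16.8%) and 18 lower (23.3%). Led by p, the higher ones were ADAMTS14 (3.34, SE 0.267, adjusted p = 4.24e-14), TIMP1 (2.45, SE 0.24, adjusted p = 1.31e-11), ADAM17 (1.86, SE 0.212, adjusted p = 8.17e-10), ADAM9 (1.52, SE 0.241, adjusted p = 1.36e-06) and ADAM19 (2.03, SE 0.366, adjusted p = 1.34e-05). The lower ones were ADAM2 (-2.11, SE 0.192, adjusted p = 1.87e-12), ADAMTSL3 (-2.53, SE 0.272, adjusted p = 1.72e-10), TIMP4 (-4.35, SE 0.48, adjusted p = 3.67e-10), ADAMTS3 (-2.78, SE 0.309, adjusted p = 4.51e-10) and ADAMTS6 (-1.77, SE 0.251, adjusted p = 1.35e-07). With the rabbit as a block, ADAMTS15, MMP28 and ADAMTS17 lost the call here (adjusted p = 0.0509, 0.186 and 0.0629).

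Genes outside the family that activate, inhibit or are cut by these enzymes were counted from 3 lists. On IR/CHT, 22.2% of all genes were higher and 12.2% lower in the aorta, against 21.1% and 21.7% for the aortic and 11.1% and 6.65% for the mitral valve. Of 13 tested activators and other inhibitors in the IR/CHT aorta, 8 were higher and 2 lower, and of 14 in the aortic and in the mitral valve 5 and 4 were higher and 4 and 4 lower. PLAU, the urokinase that activates plasminogen, rose in all 3, with log2 fold changes of 1.98 (SE 0.2, adjusted p = 1.40e-08) in the aorta, 3.94 (SE 0.276, adjusted p = 1.24e-11) in the aortic valve and 2.78 (SE 0.255, adjusted p = 2.20e-08) in the mitral valve. So did its receptor PLAUR, with log2FC 4.78 (SE 0.596, adjusted p = 4.06e-07), 2.97 (SE 0.573, adjusted p = 0.000116) and 2.71 (SE 0.485, adjusted p = 0.00016). RECK, a membrane-anchored MMP inhibitor, fell in all 3, with log2FC -0.93 (SE 0.188, adjusted p = 0.00019), -1.60 (SE 0.328, adjusted p = 0.000227) and -0.97 (SE 0.213, adjusted p = 0.00138). In the IR/CHT pulmonary valve none of the 14 tested was called by edgeR.

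Among matrix substrates on IR/CHT, the aortic valve counts were close to these shares: 4 of 20 were higher and 4 lower. In the aorta 9 of 19 were higher and 3 lower, and for the mitral valve 3 of 20 higher and 1 lower. TNC, tenascin-C, was higher in all 3, with log2FC 3.41 (SE 0.612, adjusted p = 5.34e-05), 1.04 (SE 0.256, adjusted p = 0.00143) and 0.67 (SE 0.225, adjusted p = 0.0283). FN1, fibronectin, was higher in the aorta (log2FC 1.76, SE 0.339, adjusted p = 0.000123) and the aortic valve (1.55, SE 0.217, adjusted p = 1.56e-06). DCN, decorin, was lower in the aortic valve (log2FC -1.96, SE 0.403, adjusted p = 0.000233) and the mitral valve (-1.32, SE 0.192, adjusted p = 1.19e-05). Of the membrane proteins that ADAM sheddases cut, 13 of 19 were higher and 2 lower in the IR/CHT aorta, 7 of 20 higher and 2 lower in the aortic valve, and 6 of 19 higher and none lower in the mitral valve. CD44, a hyaluronan receptor, rose in all 3, with log2FC 1.28 (SE 0.148, adjusted p = 1.23e-07), 2.34 (SE 0.171, adjusted p = 2.54e-11) and 1.31 (SE 0.165, adjusted p = 1.69e-06). So did IL6R, the interleukin-6 receptor, with log2FC 3.43 (SE 0.445, adjusted p = 7.49e-07), 2.67 (SE 0.381, adjusted p = 2.05e-06) and 2.09 (SE 0.292, adjusted p = 7.08e-06). On CHT, the 3 lists had 5 of 13, 6 of 19 and 11 of 19 higher in the aorta, 2 of 14, 2 of 20 and 3 of 20 in the aortic valve and 2 of 14, 0 of 20 and 4 of 19 in the mitral valve. Lower on CHT were LAMA4 and HSPG2 in the aorta and SPOCK1 in the aortic valve, and none in the mitral valve. Over all genes the higher and lower shares on CHT were 14.2% and 5.18% (aorta), 8.42% and 3.48% (aortic valve) and 4.98% and 0.64% (mitral valve).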

How the data were processed

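RNA of aorta and of all 4 heart valves of the same rabbits was sequenced in 134 libraries. The authors prepared them with a stranded total RNA kit and obtained counts with the nf-core rnaseq pipeline on OryCun2.0 with an Ensembl annotation, and bcl2fastq 2.20 is named in the submitters' processing notes. The methods name the pipeline's defaults apart from trimming, so no strand option was set and counting was taken as unstranded. Reads of a gene and of an antisense partner then cannot be told apart. The values deposited by the authors are whole-number counts of reads per gene, with no normalization, in 2 tables that cover both plates. Totals ran from 13564979 to 50577676 counts, which sets the counting error of low genes such as MMP1 and MMP3.

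Counts were tested in R 4.3.3 with the quasi-likelihood test of edgeR 4.0.16 (two-sided, robust, TMM scaling, filterByExpr on the groups), with Benjamini-Hochberg adjustment over all genes tested. Members were called where the adjusted p was under 0.05 with over 1.5-fold change, and in the interaction tests the adjusted p alone. Within a tissue 1 model held all 4 treatments, and the tissues were compared on the Ctrl libraries. Levels are TMM-scaled CPM over all 134 libraries, and they were compared only within a gene, since gene lengths were not used. Pooled ratios of counts carry exact 95% intervals that cover counting error only, and ratios against a group with no count were set against 3 counts over that group. The tests were tried on simulated counts before use.

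Group labels came from the sample descriptions. Same-rabbit libraries deviated together between tissues: over 27 rabbits the median correlation of deviations from the group means was 0.201 between aorta and aortic valve (20 over 0.1), against -0.0393 between different rabbits. It was 0.439 between aortic and mitral valve (26 of 26 over 0.1, different rabbits -0.0887) and 0.175 between aortic and pulmonary valve (18 of 27, different rabbits -0.0315). The rabbit number came from the column names, and the rabbit was a block in an alternative. Within a tissue, p-values measure the spread between rabbits. The main tests between tissues and of interactions took libraries of the same rabbit as independent, so their p-values do not measure that spread alone.

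Members are set by gene symbol. In each comparison the 5 higher and 5 lower called members with the smallest p were named with statistics, every member called within a tissue was named, and 19 members of known interest were reported throughout. ADAM17, MMP13 and ADAMTS19 were shown by library after their values had been seen. The members, the gene lists and the marker lists were chosen with earlier results of these data known. Alternatives were DESeq2 1.42.0, its size factors in edgeR, no filter on low counts, the 2 compared groups alone, plate as a covariate, each plate alone, the rabbit as a block and each library left out. Leaving out the libraries that stand apart on the leading component was added after the data had been seen. Gene order came from the RefSeq table of another assembly (mOryCun1.1), which held 60 of the 61 symbols, and no coordinates were taken from it.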

Additional observations from a re-analysis of the deposited data

Results flagged for a closer look

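In the groups of 6 or 7 libraries, 13 highest levels stood apart from the rest of their group by more than the 5% limit of Dixon's test, among 80 groups of a gene, tissue and treatment. Chance gives about 1 in 20 where values are normally distributed, but these were CPM without a log scale, some of them very low. Whether 13 is more than chance gives was thus not tested. For MMP12 these were 924 CPM in the aorta IR/CHT library L566, 572.6 CPM in the aortic valve CHT library L265, 6.54 CPM in the aortic valve Lard library L232, 2634 CPM in the aortic valve IR/CHT library L236, 0.468 CPM in the mitral valve Ctrl library L278 and 929 CPM in the mitral valve IR/CHT library L237. For MMP13 in the aorta they were 6.42 CPM in the CHT library L561, 299 CPM in the Lard library L562 and 55.6 CPM in the IR/CHT library L567. The others were ADAMTS14 at 21.3 CPM in the aortic valve Lard library L232, TIMP1 at 123 CPM in the aorta Ctrl library L551 and 175.6 CPM in the mitral valve IR/CHT library L195, and TIMP3 at 1475 CPM in the mitral valve Ctrl library L156. L232 was thus the highest aortic valve Lard library for both MMP12 and ADAMTS14, and it had the highest macrophage sum of that group, 763 CPM.

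The response to a treatment differed between tissues by edgeR's interaction test, as a difference of log2 fold changes. Between the aortic and the pulmonary valve on IR/CHT it was 3.34 for ADAMTS14, 2.45 for TIMP1, 1.86 for ADAM17, -2.11 for ADAM2, -2.53 for ADAMTSL3 and -4.35 for TIMP4. Between the aortic valve and the aorta on IR/CHT it was 2.46 for ADAM19, 0.94 for ADAM17, 1.88 for ADAMTS9, -3.63 for ADAMTS3, -4.43 for TIMP4 and -1.82 for ADAM2. On CHT it was 2.23 for ADAMTS14, 0.97 for ADAM9 and 0.80 for ADAM17 between the aortic and pulmonary valve, and -1.13 for ADAMTS3 between the aortic valve and the aorta. The median difference over all genes on IR/CHT between the aortic valve and the aorta was -0.29, and between the aortic and the pulmonary valve it was -0.19, so the values below zero are to be read against those shifts.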

How the results depend on the processing

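The counts of members called by edgeR changed by more than 1.5 times under the following alternatives. With DESeq2 they went from 2 to 4 for IR/CHT against CHT in the aorta, from 1 to 2 for the same in the mitral valve, from 0 to 1 on Lard in the aortic valve and on CHT in the pulmonary valve, and from 1 to 8 for the mitral against the aortic valve on chow. With the size factors of DESeq2 in edgeR they were 1 for IR/CHT against CHT in the aorta, 1 for the same in the pulmonary valve and 2 for the mitral against the aortic valve. With no filter they were 0 for IR/CHT against CHT in the aorta, 1 for IR/CHT against Ctrl in the pulmonary valve and 0 for the CHT interaction of aortic valve and aorta. With only the 2 groups compared they were 0 on Lard and 0 for IR/CHT against CHT in the aorta, and in the pulmonary valve 1 on CHT, 1 on IR/CHT and 0 for IR/CHT against CHT. With plate as a covariate they were 3 for the mitral against the aortic valve and 0 for the CHT interaction of aortic valve and aorta. On plate 1 alone they were 5 on CHT in the aortic valve, 0 for IR/CHT against CHT in the mitral and the pulmonary valve and 1 (ADAM8) on IR/CHT in the tricuspid valve. On plate 2 alone they were 8 on IR/CHT in the mitral valve, 0 for both comparisons of IR/CHT in the pulmonary valve, and 0 on chow for the mitral and pulmonary against the aortic valve and the tricuspid against the mitral valve, and ADAM22 in the pulmonary against the aortic valve reversed to a log2 fold change of -0.00809. Without the libraries that stand apart they were 1 for IR/CHT against CHT in the pulmonary valve, 8 for the mitral against the aortic valve, 14 for the tricuspid against the mitral valve, and 2 and 6 for the CHT interactions of the aortic valve with the aorta and the pulmonary valve. The causes of these shifts were not tested, and the fits of each plate alone also held fewer libraries.

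With the rabbit as a replicate block, 3 members were called for the mitral against the aortic valve, and of 113 calls of single members 5 were lost: ADAM28 and ADAMTS4 in the pulmonary against the aortic valve, and ADAMTS15, MMP28 and ADAMTS17 in the IR/CHT interaction of these valves. It added 11 calls: ADAM18 (aortic valve against aorta), ADAMTS3 and ADAMTS9 (mitral against aortic valve), ADAM23 and ADAMTS9 (pulmonary against aortic valve), ADAMTS2 (tricuspid against mitral valve), ADAM22 and TIMP1 (IR/CHT, aortic valve against aorta), MMP12 (CHT, aortic against pulmonary valve), and ADAMTS1 and ADAMTS12 (IR/CHT, the same valves). Within a tissue the groups held different rabbits, so no pairing applied there. Leaving out each library in turn gave 13 to 16 members on CHT, 5 to 9 on Lard, 24 to 27 on IR/CHT and 0 to 4 for IR/CHT against CHT in the aorta, and 8 to 18 on CHT, 27 to 33 on IR/CHT and 12 to 16 for IR/CHT against CHT in the aortic valve. Mitral counts were 5 to 8, 16 to 17 and 1 to 2 in that order, in the pulmonary valve 1 to 2 on IR/CHT and 0 to 2 for IR/CHT against CHT, in the tricuspid valve 0 to 4 on IR/CHT, and in the remaining within-tissue comparisons 0. Of 135 calls of single members, 25 were lost in some such run and 0 reversed, and 4 more were not tested in 6 runs each because the gene left the filter: MMP1 and MMP13 in the aortic valve, for IR/CHT against Ctrl and against CHT. Losses in at least 6 runs that the report does not give were those of ADAM1A (6 of 13) on CHT and ADAMTS12 (10 of 13) and ADAMTSL3 (8 of 13) for IR/CHT against CHT in the aorta, and of ADAMTSL4 (7 of 13) on CHT and MMP24 (10 of 13) and TIMP3 (7 of 13) for IR/CHT against CHT in the aortic valve. In 21 of the 135 calls, leaving out 1 library moved the fold by over 1.5 times. Those not given with their values in the report were MMP1 (9.73 without L567) in the IR/CHT aorta, MMP12 in the IR/CHT pulmonary valve (6.33 without L263), and in the IR/CHT aortic valve MMP13 (5.99 without L198), MMP24 (-2.63 without L194, and -2.34 against CHT), ADAM8 (3.17 without L150) and MMP9 (3.05 without L178), as log2 fold changes. With only the 2 groups compared, 11 of the 135 calls were not tested because the gene did not pass the filter: those of MMP1 and MMP3 on CHT, MMP1, MMP9, MMP12 and MMP13 on Lard and MMP13 on IR/CHT in the aorta, MMP1 and MMP13 on IR/CHT and MMP24 for IR/CHT against CHT in the aortic valve, and MMP12 on IR/CHT in the pulmonary valve. Beside the comparisons above in which it left 0 calls, this fit also lost ADAMTS4 on CHT and ADAMTS8 on IR/CHT in the aorta, MMP28 on IR/CHT and ADAM12, ADAMTSL4, TIMP3 and TIMP4 on CHT in the aortic valve, and TIMP4 on CHT in the mitral valve. Calls of single members lost with other tools numbered 4 with DESeq2, 7 with its size factors in edgeR, 19 with no filter and 13 with plate as a covariate. Those with DESeq2 were MMP12 and TIMP3 for IR/CHT against CHT in the aortic valve, ADAM2 for the same in the pulmonary valve and ADAM10 between aortic valve and aorta on chow.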
